A study of Ovis aries with 15 samples.

Results

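The SLC25 genes encode the mitochondrial carrier family, and the genes described here are the rows of the deposited sheep gene table whose symbol is SLC25A followed by a number. The table of 24691 features held 44 such symbols, and 39 of them had at least 10 exon reads in at least 6 of the 15 libraries and were kept. The rule itself used no measured difference between groups, but the members were chosen with earlier results of these data known. RNA was sequenced from needle biopsies of the mammary gland of 2-year-old Romney ewes in their first pregnancy, taken at day 135 of gestation (9 libraries) and at day 15 post partum (6 libraries). Each library was 1 pool of RNA from several ewes, and the pool is the replicate. In the labels a pool holds 3 ewes in late pregnancy but only 2 in lactation, while the study's methods give 3 for both. The ewes were biopsied in late pregnancy and sampled again in lactation, and the sources used here do not say which pools share ewes.

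The ewes themselves were all managed alike on pasture, and the group names refer to the feed of their own dams. Dams were offered an ad libitum (HM), a maintenance (MM) or a sub-maintenance (LM) pasture allowance from day 21 to day 50 of gestation, and the dams of the ewes used here were on a maintenance allowance from then to day 140. Each of the 3 dam groups contributed 3 late pregnancy and 2 lactation libraries.

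Mitochondrial carriers are small proteins of the inner mitochondrial membrane, made in the cytosol from nuclear genes and inserted with the help of the small TIM proteins and the TIM22 complex. Each exchanges or transports particular metabolites, such as ADP for ATP, phosphate, citrate, aspartate for glutamate, ornithine, carnitine esters or coenzymes, between the cytosol and the matrix. In the lactating gland of ruminants, where acetate is the main carbon source for milk fat, the secretory cells make large amounts of ATP and move citrate, malate and amino acid carbon across this membrane.

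Between 7597938 and 19823166 reads per late pregnancy library fell on genes, and between 10352962 and 25679416 per lactation library. The 7 major milk protein genes took 13.7 to 23.4% of these in late pregnancy but 71.3 to 75.8% in lactation, so that a lactation library left fewer reads for the carriers. The 39 SLC25 genes together took 0.150 to 0.166% of the counted reads before lambing and 0.0445 to 0.0531% at day 15 after it. After scaling of the libraries by the bulk of their genes (TMM), the summed level of the 39 genes was 937 ± 40.7 CPM (SD, n = 9; CPM are TMM-scaled reads of a gene per 1e+06 reads) in late pregnancy and 1084 ± 54.8 CPM (SD, n = 6) in lactation. The order of the states therefore turned with the scaling, and the ranges did not overlap on either scale (869 to 996 CPM against 1028 to 1169 CPM after TMM).

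Marker genes of several cell types differed between the states in these biopsies. Of all genes tested between the states, 33.1% were called as higher in lactation and 35.2% as lower. Of the luminal epithelial markers, 5 of 7 were higher in lactation and none was lower, and their summed level was 1436 to 1762 CPM in late pregnancy and 2515 to 2829 CPM in lactation. All 6 T cell markers were lower (summed level 43.4 to 70.3 CPM and 14.1 to 20.97 CPM), as were 3 of 3 endothelial, 3 of 4 fibroblast and 3 of 5 macrophage markers. Other lists did not share that direction: of 5 myoepithelial markers KRT14 was higher (0.61), KRT5 (-0.90) and TP63 (-0.38) were lower and 2 were not called, and of the 2 B and plasma cell markers tested MZB1 was higher (2.54) and CD79A lower (-1.27). TNNT3, the only skeletal muscle marker tested, was lower (-2.41). None of 3 adipocyte markers was called (221 to 427 CPM against 301 to 392 CPM), and none of the epithelial, T cell, endothelial, fibroblast, macrophage or adipocyte markers in the table was at 0 throughout. In such bulk samples fewer cells of a type and less RNA per cell cannot be told apart, and the part of these shifts in the SLC25 results was not tested.

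Of the 39 kept genes, 38 passed the filter on low counts and were tested between the states. Of these, 15 were higher in lactation, 8 were lower and 15 were not called at an adjusted p under 0.05 (1 higher and 36 lower where libraries were scaled by their size alone). Across all 13345 genes tested, 68.4% were called, 33.1% as higher and 35.2% as lower, so calls were no more frequent among the SLC25 genes than in the table. Changes of more than 2-fold were called for SLC25A4, SLC25A21 and SLC25A17 (higher) and for SLC25A27, SLC25A10 and SLC25A14 (lower), where 22.1% of all genes tested had such a change (9.13% higher and 13% lower). SLC25A27 and SLC25A14 had fewer than 10 reads in every lactation library and entered the test through their late pregnancy reads. Among the 32 genes with at least 10 reads in every lactation library, 3 were higher and 1 was lower by more than 2-fold. The median log2 change of the 38 genes was 0.14 against -0.03 for all genes tested, and 22 of the 38 lay above the median of all genes. The family median was above that of all genes by 0.09 to 0.21 under every scaling, filter, covariate, lane subset and left-out library tried. These settings refit the same libraries and are not separate evidence. Each library was run on 2 lanes by the labels, but its column header names only lane 7 or lane 8, so the lane 7 and lane 8 libraries below are subsets by header, and what the header's lane stands for is not given in the sources used here. All LM libraries are named lane 8, and all HM lactation libraries lane 7. Differences between these subsets and between dam groups therefore cannot be told apart.

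The rule kept 7 genes with fewer than 10 reads in some lactation library (SLC25A14, SLC25A27, SLC25A34, SLC25A37, SLC25A42, SLC25A43 and SLC25A53), so the late pregnancy libraries largely carried them past it. Among the other 32, which had at least 10 reads in every library, 15 were higher, 6 were lower and 11 were not called. The groups did not overlap for 13 of the 38 genes tested, where 40.2% of all genes tested had no overlap. SLC25A34, just inside the rule with 6 libraries at 10 reads or more, had 99 reads in all late pregnancy libraries and 11 in all lactation libraries, and SLC25A47, the nearest gene outside it, had at most 5 reads in any library.

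**Figure D1:**
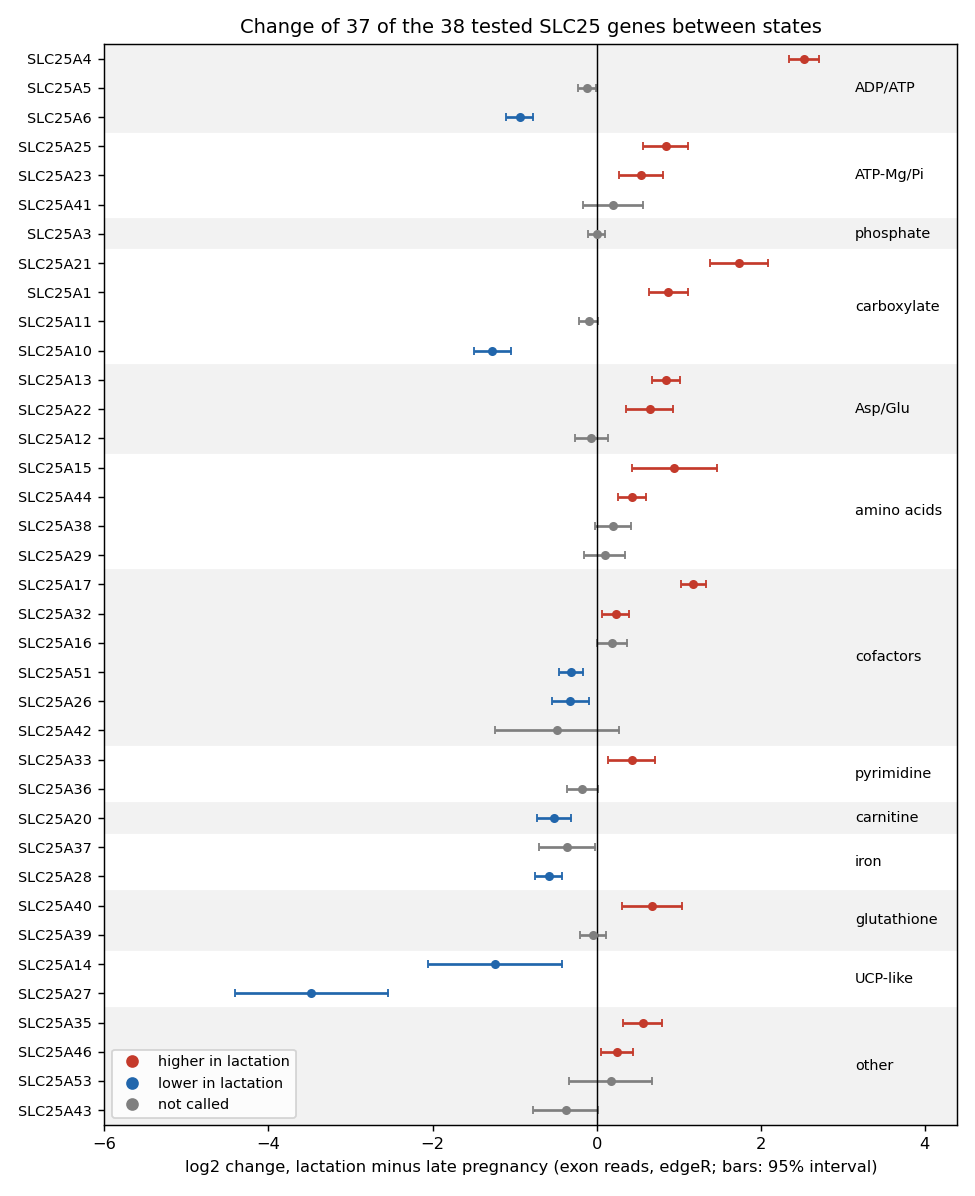
Log2 change of 37 of the 38 tested SLC25 genes, lactation minus late pregnancy after TMM scaling, as points with 95% intervals from edgeR, grouped by the kind of substrate and coloured by the call. SLC25A4 stands at 2.53 and SLC25A27 at -3.48, most others lie within 1 of zero, and with library size alone every point but that of SLC25A4 would lie below zero.

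Expression within the family was very uneven. Per kilobase of exon, mean levels ran from 0.421 CPM (SLC25A34) to 312 CPM (SLC25A6) in late pregnancy and from 0.0873 CPM (SLC25A27) to 272 CPM (SLC25A4) in lactation. The 5 genes SLC25A3, SLC25A4, SLC25A5, SLC25A6 and SLC25A39 held 64.1% ± 1.26 (SD, n = 9) of the family's CPM in late pregnancy and 63.1% ± 1.34 (SD, n = 6) in lactation. The same 5 genes ranked highest per kilobase in both states, but their order changed, since SLC25A4 went from rank 5 to rank 1. SLC25A29 and SLC25A11 ranked 6 and 7 in both states.

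**Figure D2:**
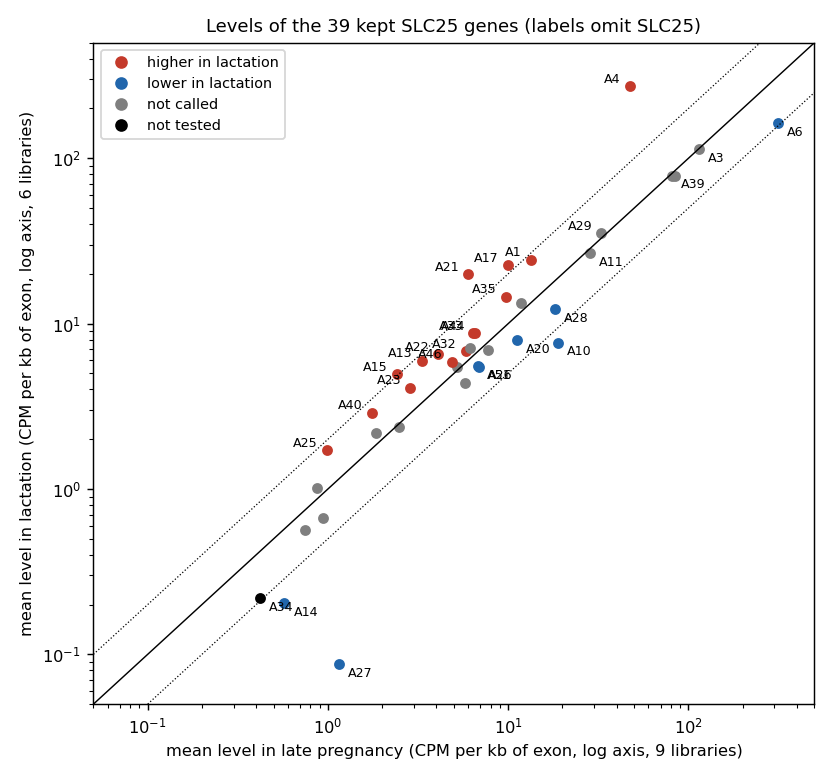
Mean level of each of the 39 kept SLC25 genes in late pregnancy (horizontal, 9 libraries) and lactation (vertical, 6 libraries), in TMM-scaled CPM per kilobase of exon on log axes, with the line of equal levels and dotted lines at 2-fold. SLC25A4 and SLC25A21 lie well above the upper dotted line, SLC25A10, SLC25A14 and SLC25A27 lie below the lower one, and SLC25A3, SLC25A39, SLC25A29 and SLC25A11 lie on or near the line of equal levels.

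The ADP/ATP carriers, which export the ATP made in mitochondria in exchange for ADP, exchanged their order between the states. SLC25A4 (chr26:14223802-14227499; coordinates here and below are those of the deposited table, on the Oar assembly of the study, given as 3.2 in the methods and as 3.1 in the submitters' processing notes) had 33.05, 40.6 and 51.0 CPM in its lowest, median and highest late pregnancy library. In lactation the same 3 values were 212, 247 and 259 CPM, so that every lactation library stood above every late pregnancy library. SLC25A4 was higher in lactation by 2.53 ± 0.09 on the log2 scale (SE), a 5.76-fold difference with an adjusted p of 3.67e-15, and it was the only SLC25 gene that was also higher with library size alone.

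SLC25A6 (chrX:611852-644631) changed the other way, from 194, 220 and 247 CPM in late pregnancy to 102, 110 and 142 CPM in lactation (lowest, median and highest library). It fell by 0.94 on the log2 scale (SE 0.08, adjusted p = 2.18e-09), and its libraries did not overlap between the states. SLC25A5 (chrX:109342823-109344186), the other widely expressed ADP/ATP carrier, ranged from 60.2 to 73.8 CPM around a median of 67.0 CPM in late pregnancy and from 57.4 to 67.9 CPM around 61.3 CPM in lactation. These ranges overlapped, and the difference of -0.12 was not called (adjusted p = 0.056). The SLC25A5 call depended on single libraries, since its adjusted p was 0.023 without lactation HM pool 1, 0.031 without late pregnancy HM pool 1 and 0.046 without late pregnancy LM pool 3, and it was called as lower under upper quartile scaling (-0.27), in limma on quantile-normalized RPKM (-0.38), without a filter (-0.17) and with 10 reads required in every library (-0.20).

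Per kilobase, the summed level of the 3 carriers was 398 to 493.1 CPM in late pregnancy and 459 to 557 CPM in lactation, and these ranges overlapped. Within that sum the shares moved apart. SLC25A4 made up 8.12 to 13.3% in late pregnancy and 49.9 to 56.3% in lactation, whereas SLC25A6 made up 66.7 to 73.2% and then 28.3 to 36.0%. The share of SLC25A5 ranged from 17.5 to 21.98% and from 14.0 to 17.6%. These shares compare genes within a library and do not depend on the scaling, and with uniquely placed reads alone the SLC25A4 share was 8.14 to 13.3% and 49.9 to 56.4%. Their size does depend on the annotated exon lengths (879 bases for SLC25A4, 789 for SLC25A5 and 708 for SLC25A6), whose completeness was not checked. SLC25A31, the carrier known from testis, had 9 reads in all late pregnancy libraries and 2 in all lactation libraries and was not kept.

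**Figure D3:**
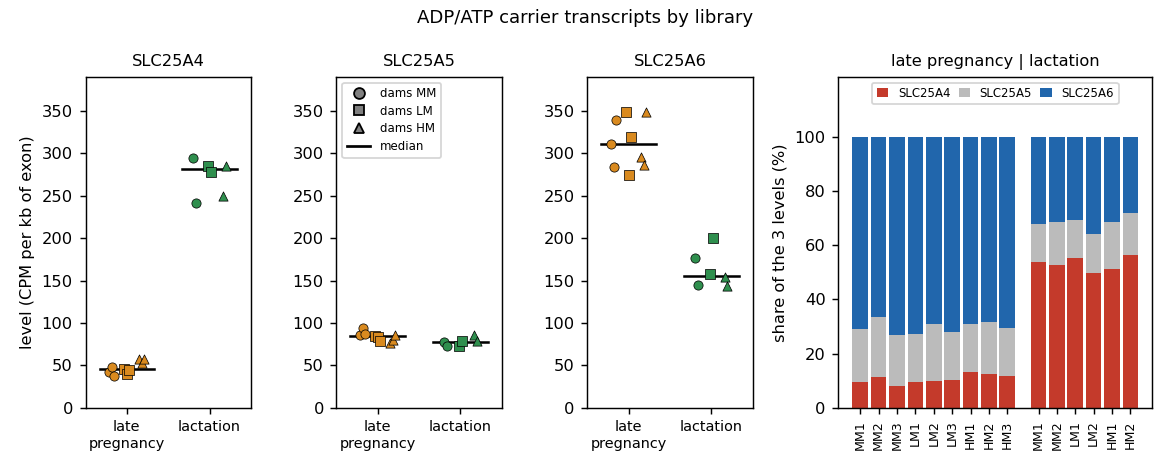
Levels of the 3 ADP/ATP carriers in each library (TMM-scaled CPM per kilobase of exon, symbols by dam group, bars at the median) and their share of the summed level in each library (stacked bars, pools named by dam group and number). SLC25A4 makes up at least 49.9% of the sum in every lactation library and at most 13.3% in every late pregnancy library, and SLC25A6 at most 36.0% and at least 66.7%.

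SLC25A3, which imports the phosphate used for ATP synthesis, was the least changed of the abundant carriers. Its level was 141, 151 and 164 CPM in the lowest, median and highest late pregnancy library and 137, 153 and 159 CPM in lactation, with means of 150.5 and 150.4 CPM. The log2 difference was -0.00 ± 0.05 (SE, adjusted p = 0.995), and its sign turned in 4 of the alternative fits over all libraries or 1 lane subset and in 8 of the fits that left out 1 library, where it reached at most 0.02. It was called as lower under upper quartile scaling (-0.15) and in limma on quantile-normalized RPKM (-0.31).

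The ATP-Mg/phosphate carriers adjust the adenine nucleotide pool of the matrix, and some of them are regulated by calcium. SLC25A25 went from 2.18 ± 0.20 CPM (SD, n = 9) to 3.79 ± 0.72 CPM (SD, n = 6) and SLC25A23 from 3.68 ± 0.54 to 5.27 ± 0.91 CPM. Both were higher in lactation, SLC25A25 by 0.84 with no overlap (adjusted p = 1.07e-05) and SLC25A23 by 0.54 with overlap (adjusted p = 0.001). SLC25A41 ranged from 1.55 to 2.86 CPM (median 2.17 CPM) and from 1.93 to 3.52 CPM (median 2.56 CPM) and was not called (0.20, adjusted p = 0.328), although limma on quantile-normalized RPKM called it as higher (0.26). SLC25A24 has no row under its symbol, but the feature LOC101121132 carries the gene identifier of SLC25A24 in the RefSeq gene table. That feature was lower, from 3.44 ± 0.62 to 2.19 ± 0.53 CPM (log2 change -0.66, adjusted p = 0.002).

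Of the 4 carriers of di- and tricarboxylates and oxoacids, 2 were higher in lactation, 1 was lower and 1 was not called. SLC25A21 (chr18:45770540-46299997), which carries 2-oxoadipate and 2-oxoglutarate and serves the breakdown of lysine and tryptophan, had 10.0, 13.1 and 26.8 CPM in its lowest, median and highest late pregnancy library and 43.3, 52.6 and 57.0 CPM in lactation. The states did not overlap, and SLC25A21 was 3.34-fold higher in lactation (log2 1.74 ± 0.17 SE, adjusted p = 1.97e-08). SLC25A1 (chr17:71786791-71801267), the citrate carrier that supplies cytosolic citrate for fat and sterol synthesis, went from 8.21, 10.6 and 12.7 CPM to 15.3, 19.2 and 23.3 CPM (log2 0.88 ± 0.11 SE, adjusted p = 8.96e-07), also without overlap.

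SLC25A10 (chr11:50269282-50275156), the dicarboxylate carrier that exchanges malate or succinate for phosphate, moved in the opposite direction. Its lowest, median and highest libraries had 12.6, 15.3 and 17.1 CPM in late pregnancy and 4.84, 5.66 and 7.83 CPM in lactation. SLC25A10 was thus 2.41-fold lower in lactation (log2 change -1.27, SE 0.11, adjusted p = 2.55e-09), again without overlap between the states. SLC25A11, the oxoglutarate/malate carrier of the malate-aspartate shuttle, stayed at 24.1 to 28.5 CPM around a median of 27.3 CPM and at 23.6 to 26.6 CPM around 25.2 CPM. The change of SLC25A11 was not called (-0.10, adjusted p = 0.126), but it was called as lower under upper quartile scaling (-0.25), in limma (-0.28), without a filter (-0.15) and with 10 reads required in every library (-0.18).

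Set against each other within a library and per kilobase, the ratio of SLC25A1 to SLC25A10 was 0.498 to 0.853 over the late pregnancy libraries and 2.05 to 3.91 over the lactation libraries. The citrate carrier thus stood below the dicarboxylate carrier in every late pregnancy library and above it in every lactation library. The ratio of SLC25A1 to SLC25A11 was 0.373 to 0.600 and then 0.715 to 1.18, and it did not overlap between the states either.

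**Figure D4:**
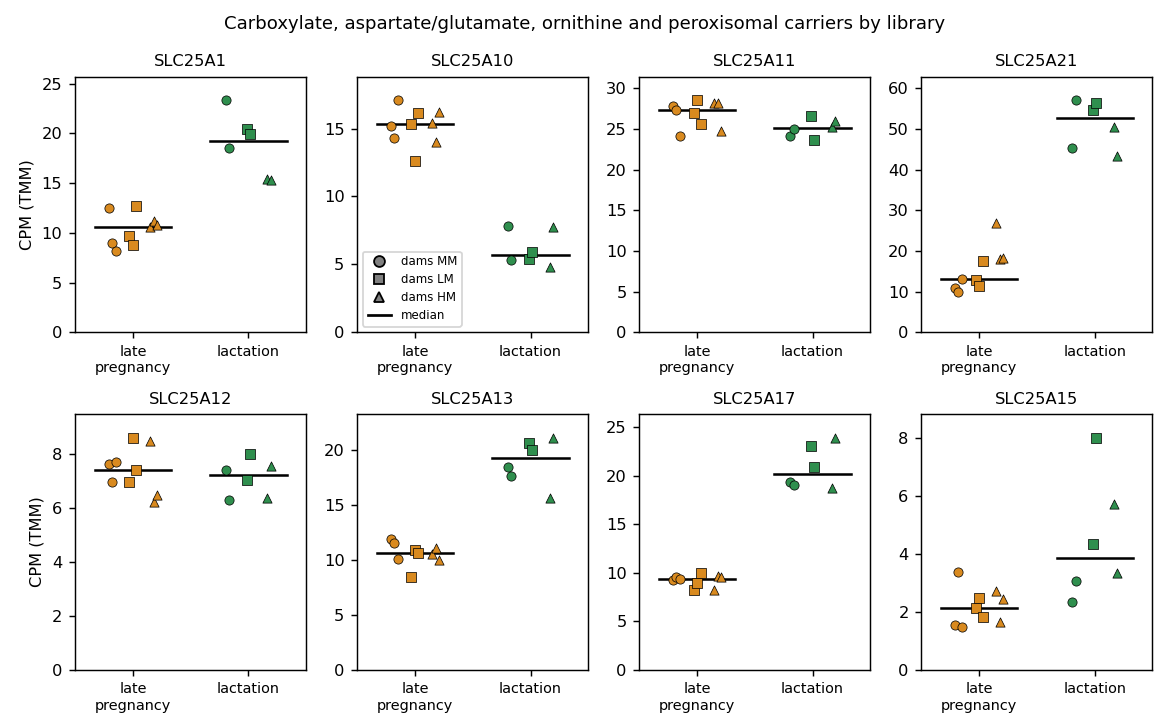
TMM-scaled CPM of 8 carriers in each of the 15 libraries, with symbols by dam group and bars at the median of each state, each panel starting at 0. SLC25A1, SLC25A21, SLC25A13 and SLC25A17 lie higher in all 6 lactation libraries than in any late pregnancy library after TMM scaling (not with library size alone), SLC25A10 lies lower in all 6, and SLC25A11, SLC25A12 and SLC25A15 overlap between the states.

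The aspartate/glutamate carriers move reducing equivalents into mitochondria as part of the malate-aspartate shuttle and supply cytosolic aspartate. SLC25A13 (chr4:13340671-13571766) had 8.46, 10.6 and 11.9 CPM in late pregnancy and 15.6, 19.2 and 21.1 CPM in lactation, with no overlap (log2 0.84 ± 0.08 SE, adjusted p = 2.02e-08). Its close relative SLC25A12 had 6.21, 7.41 and 8.61 CPM and 6.31, 7.22 and 7.99 CPM, and its difference of -0.07 was not called (adjusted p = 0.562; 0.03 in limma). The ratio of SLC25A12 to SLC25A13 per kilobase lay between 0.597 and 0.877 in late pregnancy and between 0.364 and 0.434 in lactation, without overlap. SLC25A22, a glutamate carrier, was higher in lactation as well, at 6.41 ± 0.83 CPM (SD, n = 6) against 4.03 ± 0.76 CPM (SD, n = 9), with no overlap (log2 0.65, adjusted p = 3.1e-04). No row of the table carried the symbol SLC25A18, the other glutamate carrier.

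Among the amino acid carriers, SLC25A15 and SLC25A44 were higher in lactation. SLC25A15, the ornithine carrier, had 1.49, 2.13 and 3.37 CPM in its lowest, median and highest late pregnancy library and 2.35, 3.84 and 7.99 CPM in lactation, so that the states overlapped (log2 0.95 ± 0.25 SE, adjusted p = 0.002). Within the lane 7 libraries the SLC25A15 change was 0.58 and not called (adjusted p = 0.207), and within those of lane 8 it was 1.24 (adjusted p = 0.003). SLC25A44, which carries branched-chain amino acids, went from 12.1 ± 1.27 to 16.1 ± 1.17 CPM without overlap (log2 0.43, adjusted p = 9.22e-05), and its change was 0.41 on the 88.9% of its exon reads that were uniquely placed.

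SLC25A29, a carrier of basic amino acids, was the most abundant of the group, and it was not called. Its lowest, median and highest libraries had 35.5, 45.8 and 65.4 CPM in late pregnancy and 36.6, 51.2 and 58.4 CPM in lactation (log2 0.10 ± 0.12 SE, adjusted p = 0.486), and the sign turned under upper quartile scaling (-0.05) and in limma (-0.12). SLC25A38, the glycine carrier needed for haem synthesis, had 5.62 ± 0.29 and 6.57 ± 1.26 CPM and was not called (0.20, adjusted p = 0.094), but it passed without lactation LM pool 1 (0.28, adjusted p = 0.027) and was at 0.12 without lactation HM pool 2. SLC25A2, a second ornithine carrier, had 5 reads in all late pregnancy libraries and 3 in all lactation libraries.

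The carriers of cofactors and coenzymes split in both directions. SLC25A17 (chr3:216041517-216081678), a carrier of coenzyme A, FAD and NAD in the peroxisomal membrane, had 8.21, 9.38 and 9.92 CPM in late pregnancy and 18.7, 20.1 and 23.9 CPM in lactation. No library of one state reached the range of the other, and SLC25A17 was 2.27-fold higher in lactation (log2 1.18 ± 0.07 SE, adjusted p = 2.37e-11). SLC25A32, which carries folate or FAD, was higher by 0.23 (adjusted p = 0.016), from 10.99, 13.1 and 13.9 CPM to 13.0, 15.0 and 17.8 CPM. The SLC25A32 call was lost under upper quartile scaling (0.08), in the lane 7 libraries (0.16), without a filter (0.18), with 10 reads required in every library (0.15) and without lactation MM pool 2 (0.17, adjusted p = 0.069).

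SLC25A51, the carrier that brings NAD into mitochondria, was lower in lactation, from 23.3 ± 1.87 to 18.9 ± 1.56 CPM (log2 change -0.31, adjusted p = 5.72e-04), and SLC25A26, the S-adenosylmethionine carrier, from 5.65 ± 0.52 to 4.54 ± 0.57 CPM (-0.32, adjusted p = 0.012). Both overlapped between the states, and SLC25A26 was not called within the lane 7 libraries (-0.11, adjusted p = 0.588; -0.53 within those of lane 8). SLC25A16, linked to coenzyme A, had 18.7 ± 1.65 and 21.3 ± 3.32 CPM and narrowly missed the threshold (0.19, adjusted p = 0.056). It passed within the lane 8 libraries (0.33) and without any 1 of lactation HM pool 2, lactation MM pool 1, lactation MM pool 2 and late pregnancy HM pool 2 (0.22 to 0.23), and its change was 0.10 without lactation LM pool 1. SLC25A42, another coenzyme A carrier, had 0.811 ± 0.32 and 0.571 ± 0.28 CPM from 2 to 25 reads a library and was not called (-0.48, adjusted p = 0.244).

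Of the pyrimidine nucleotide carriers, which supply mitochondrial DNA and RNA synthesis, SLC25A33 was higher and SLC25A36 was not called. SLC25A33 had 4.07, 6.11 and 6.44 CPM in late pregnancy and 5.74, 7.73 and 11.2 CPM in lactation (0.43, adjusted p = 0.009), and it was not called within the lane 7 libraries (0.15) or under upper quartile scaling (0.28, adjusted p = 0.076). SLC25A36 had 15.6, 17.0 and 20.03 CPM and 12.5, 15.9 and 18.8 CPM (-0.17, adjusted p = 0.098). It was called as lower under upper quartile scaling (-0.32), in limma (-0.19), without a filter (-0.22), with 10 reads in every library (-0.26) and without lactation HM pool 2 (-0.23).

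SLC25A20, which carries acylcarnitines into mitochondria for oxidation, was lower in lactation at 7.17 ± 0.88 CPM (SD, n = 6) against 10.1 ± 1.06 CPM (SD, n = 9), with overlapping libraries (log2 change -0.52 ± 0.10 SE, adjusted p = 1.29e-04). The ratio of the citrate carrier SLC25A1 to SLC25A20 per kilobase was 0.962 to 1.85 in late pregnancy and 2.47 to 4.11 in lactation and did not overlap.

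Both mitoferrins, the carriers that bring iron to the matrix for haem and iron-sulphur clusters, had negative changes, and SLC25A28 passed the test. SLC25A28 had 24.8, 27.3 and 34.7 CPM in late pregnancy and 17.5, 19.0 and 20.1 CPM in lactation, with no overlap (-0.58 ± 0.08 SE, adjusted p = 1.8e-06). SLC25A37, the mitoferrin of red cell precursors, had 2.35, 2.87 and 3.76 CPM and 1.32, 2.30 and 2.85 CPM and was not called (-0.36, adjusted p = 0.059). It was called as lower under upper quartile scaling (-0.51), in limma (-0.34) and without any 1 of lactation LM pool 1, late pregnancy LM pool 1 and late pregnancy MM pool 2 (-0.44, -0.39 and -0.39). The ratio of SLC25A28 to SLC25A37 per kilobase overlapped between the states (2.33 to 4.75 against 2.27 to 4.72).

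SLC25A39 and SLC25A40 are needed for the import of glutathione into mitochondria. SLC25A39, among the most abundant genes of the family, had 102, 123 and 133 CPM in late pregnancy and 100.04, 117 and 139 CPM in lactation and was not called (-0.04 ± 0.08 SE, adjusted p = 0.656). It was called as lower under upper quartile scaling (-0.19) and in limma (-0.31), its change was positive within the lane 8 libraries (0.09) and without lactation HM pool 2 (0.00), and 79.7% of its exon reads were uniquely placed, on which the change was -0.01. SLC25A40 was much less abundant and was higher in lactation, from 1.64 ± 0.28 to 2.71 ± 0.66 CPM (0.67, adjusted p = 0.002), although its adjusted p within the lane 8 libraries was 0.056 with the same size of change (0.65). A second feature, LOC101122272, carries the identifier of SLC25A40 in the RefSeq gene table and was not called (-0.28, adjusted p = 0.25), and 90.3% of the exon reads of SLC25A40 were uniquely placed, so the split of reads between these features is uncertain.

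The carriers related in sequence to the uncoupling proteins had few reads in lactation. SLC25A27 (chr20:19935661-19957748), best known from brain, had 24 to 44 reads in each late pregnancy library and 0 to 3 in each lactation library, or 1.08, 1.59 and 2.36 CPM against 0, 0.0870 and 0.407 CPM. Over the 297 and 6 reads of the states, late pregnancy was 11.3-fold above lactation (95% counting interval 5.13 to 31.0; exact Clopper-Pearson, counting error only), and the fitted log2 change was -3.48 ± 0.45 (SE, adjusted p = 9.51e-07). SLC25A14 (chrX:108497458-108537441) had 7 to 19 reads in each late pregnancy library and 0 to 5 in each lactation library, or 0.517, 0.608 and 0.876 CPM against 0, 0.271 and 0.451 CPM. SLC25A14 was lower by the test (-1.24 ± 0.39 SE, adjusted p = 0.008), a ratio of 2.34 over 123 and 12 reads (1.29 to 4.65). It was not called within the libraries of either lane header alone (-1.19, adjusted p = 0.079, and -1.35, adjusted p = 0.075). Both genes passed the 10-read rule through late pregnancy libraries alone (9 for SLC25A27 and 7 for SLC25A14). Their choice thus favoured a fall, and these 2 test results are not independent support for one. LOC101111642, which carries the identifier of SLC25A30, was not called (-0.16, adjusted p = 0.576).

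Among the remaining kept genes, SLC25A35 and SLC25A46 were higher in lactation. SLC25A35, whose substrate is not settled, went from 13.9 ± 2.33 to 20.7 ± 3.25 CPM with overlap (0.56, adjusted p = 2.03e-04), and it overlaps the annotated gene RANGRF, whose reads could not be told apart without strand. SLC25A46, which acts in the outer mitochondrial membrane in the shaping of mitochondria, went from 6.91, 7.93 and 8.82 CPM to 8.002, 9.23 and 11.8 CPM (0.25, adjusted p = 0.027). The SLC25A46 call was lost under upper quartile scaling (0.10), without a filter (0.20), with 10 reads in every library (0.16), within the lane 8 libraries (0.14), without lactation HM pool 2 (0.18) and without lactation LM pool 2 (0.22). SLC25A43 had 1.16, 1.77 and 1.98 CPM and 0.879, 1.20 and 1.71 CPM and was not called (-0.38, adjusted p = 0.085; called as lower under upper quartile scaling, -0.52).

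SLC25A53 had 0.962 ± 0.25 and 1.12 ± 0.39 CPM and was not called (0.18, adjusted p = 0.552), with a negative change within the lane 8 libraries (-0.26). SLC25A34 had 0.543 ± 0.19 and 0.283 ± 0.22 CPM and did not pass the filter of the test between the states. Of the genes that were not kept, SLC25A47 had 26 and 2 reads in all late pregnancy and all lactation libraries. SLC25A45 had 1 read and SLC25A48 had 2 reads, all in late pregnancy, and 0 reads over the 6 lactation libraries allow a level of up to 0.0694 CPM (3 counts over the group).

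Reads on introns, which are the reads on a gene that lie outside its exons, are a separate readout of the same libraries and could be tested for 33 of the SLC25 genes. On intron reads 10 genes were higher and 10 were lower in lactation, where 58.0% of the 10344 genes tested were called, 29.0% in each direction. Of the 22 genes called on exon reads and the 20 called on intron reads, 15 were called on both, and 14 of these had the same sign. The share with the same sign was not computed over all genes, so it is not known whether the family differs from the table. SLC25A4 (2.03 ± 0.15 SE), SLC25A21 (1.94 ± 0.16), SLC25A15 (2.35 ± 0.27) and SLC25A40 (1.18 ± 0.22) were higher by more than 2-fold on introns, where 20.3% of all genes had a called intron change of that size (9.74% higher and 10.5% lower). SLC25A27 was lower by more than 2-fold (-2.002 ± 0.21).

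SLC25A6 was the gene called in opposite directions, lower on exon reads (-0.94) and higher on intron reads (0.26 ± 0.07 SE, adjusted p = 0.002). Introns took 14.0 to 18.5% of the reads on SLC25A6 in late pregnancy and 25.1 to 36.1% in lactation, and these shares, which do not depend on scaling, did not overlap. SLC25A15 also had a higher intron share in every lactation library (36.7 to 53.6%) than in any late pregnancy library (8.33 to 35.7%). Such a shift was seen in 2 of the 33 SLC25 genes and in 6.24% of the 9776 genes tested on both kinds of read, so its frequency in the family was near that of the table. The opposite shift, to a lower intron share in every lactation library, was seen in 0 of the 33 and in 4.02% of all genes.

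Several genes that were not called on exon reads were lower on introns. They were SLC25A3 (-0.50, adjusted p = 4.62e-05), SLC25A36 (-0.67, adjusted p = 1.8e-05), SLC25A12 (-0.48, adjusted p = 0.008), SLC25A16 (-0.41, adjusted p = 0.002) and SLC25A38 (-0.56, adjusted p = 0.019). Introns made up most reads of SLC25A41 (80.3% in late pregnancy) and SLC25A29 (76.5%), and for these 2 genes the intron change was not called either (-0.06 and -0.08).

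**Figure D5:**
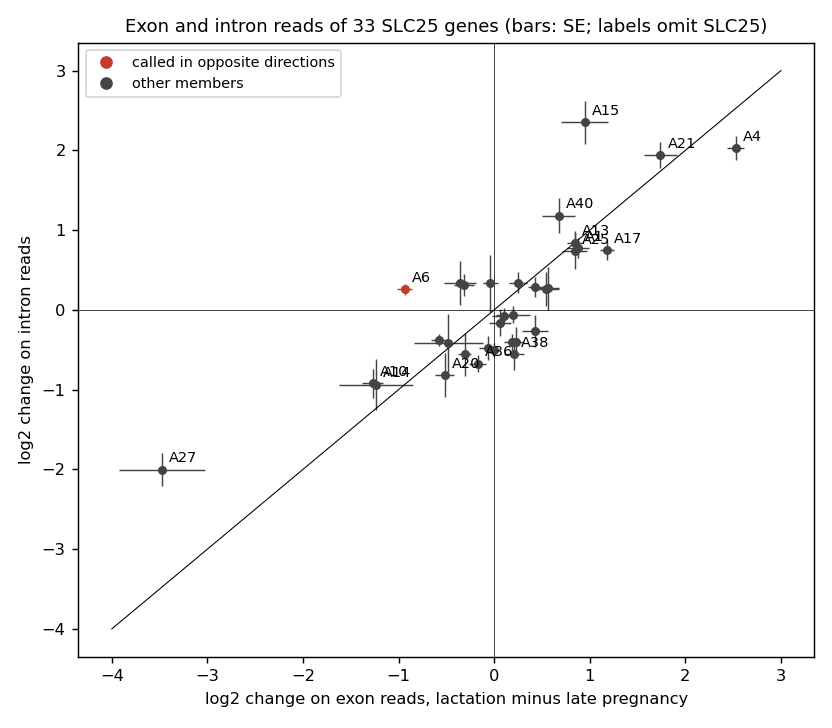
Log2 change on exon reads (horizontal) and on intron reads (vertical), lactation minus late pregnancy with TMM scaling of each table, for 33 SLC25 genes, with bars for the SE and the line of equal change. SLC25A6, in red, is the gene called in opposite directions, and SLC25A15 and SLC25A40 lie above the line of equal change.

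Differences between the dam nutrition groups were tested over the 9 late pregnancy libraries. None of the 39 SLC25 genes was called by the quasi-likelihood test of edgeR, and neither was any of the 13747 genes tested (0%). At an unadjusted p under 0.05 there were 5 SLC25 genes and 4.15% of all genes. The SLC25 gene with the lowest p was SLC25A21, with 18.1 to 26.8 CPM in the HM group, 11.4 to 17.6 CPM in the LM group and 10.0 to 13.1 CPM in the MM group (adjusted p = 0.757). Every HM library of SLC25A21 thus stood above every LM and MM library, and DESeq2 called it (adjusted p = 0.017) among 20 genes of the table.

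SLC25A4, SLC25A22 and SLC25A27 also had an unadjusted p under 0.05. SLC25A4 had 46.2 to 51.0 CPM in the HM group against 34.6 to 40.6 CPM in LM and 33.05 to 42.5 CPM in MM (adjusted p = 0.896). SLC25A22 was lower in HM (3.38 to 3.69 CPM) and LM (3.07 to 4.11 CPM) than in MM (4.89 to 5.11 CPM), also without being called (adjusted p = 0.9997). In lactation, with 2 libraries a group, the HM range of SLC25A21 was 43.3 to 50.6 CPM, that of LM 54.7 to 56.3 CPM and that of MM 45.3 to 57.0 CPM, so HM was not the highest group there.

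Whether the change between the states differed between dam groups was tested with an interaction term. None of 38 SLC25 genes was called by edgeR or DESeq2, and 4 had an unadjusted p under 0.05 in each tool. Of all 13345 genes, 6.56% were at that level in edgeR, which called 0, and DESeq2 called 19. The lowest adjusted p of edgeR was 0.728, for SLC25A21.

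The libraries of one state agreed about as closely for the SLC25 genes as for other genes. The coefficient of variation of CPM over the 9 late pregnancy libraries ranged from 4.79 to 39.3% with a median of 11.5%, against a median of 12.3% over all genes tested. Over the 6 lactation libraries it ranged from 4.48 to 128%, with a median of 15.1% against 15.8%. The highest value was that of SLC25A27 with its 0 to 3 reads a library.

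Genes that work with the carriers moved to varying extents in the same test. Of all 13345 genes tested, 33.1% were called as higher and 35.2% as lower, 9.13% and 13% by more than 2-fold. The counts of the lists below stand beside these shares, and no list was tested as a set. The mitochondrial pyruvate carrier, which is not of the SLC25 family, was higher in lactation in both subunits, MPC1 from 72.4 ± 9.46 to 328 ± 23.5 CPM (2.18, adjusted p = 4.57e-15) and MPC2 from 24.2 ± 1.94 to 140 ± 19.4 CPM (2.53, adjusted p = 5.47e-16). Of the 9 genes for citrate supply and use in fat synthesis, 8 were higher, with the changes over 2-fold in ME1 (3.59), ACACA (2.67), ACSS2 (2.66), FASN (1.91), IDH1 (1.51) and ACO1 (1.26). ACLY, the enzyme that cleaves cytosolic citrate, was the 1 that was lower (-0.44, adjusted p = 0.004), with 3.82 CPM per kilobase in lactation against 127.7 CPM per kilobase for the cytosolic aconitase ACO1.

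For the ornithine carrier, 6 of the 7 tested enzymes of ornithine, urea and proline metabolism were higher. Over all genes tested 33.1% were higher and 35.2% lower. Of these enzymes ASS1 (3.14), PYCR1 (2.75), ARG2 (1.99) and ALDH18A1 (1.26) were above 2-fold. For the acylcarnitine carrier, 5 of 7 genes of the carnitine system were lower, with CPT1A (-2.29), CPT1C (-1.50) and CROT (-1.47) beyond 2-fold, and 2 were higher, CRAT and CPT1B (3.94), the muscle form of the outer acyltransferase. GOT1 of the malate-aspartate shuttle was higher (0.84, adjusted p = 1.11e-06), and MDH1 was not called (0.04, adjusted p = 0.607). GOT2 and MDH2, also listed for the shuttle, had no row under their symbols. Of the shuttle carriers SLC25A13 was higher, while SLC25A11 and SLC25A12 were not called. Of 10 iron-sulphur and haem genes tested, 5 were lower, with CPOX (-1.08) beyond 2-fold, and 3 were higher. Of 5 one-carbon enzymes 2 were higher, with ALDH1L2 (1.18) above 2-fold, and 2 were lower.

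Genes for general mitochondrial functions changed in both directions, where 33.1% of all genes tested were higher and 35.2% lower. Of 12 ATP synthase subunits 2 were higher and 3 lower, with ATP5G2 (-1.13) alone beyond 2-fold, and of 6 import genes for carriers TIMM8B (0.94) was higher and TOMM70A (-0.33) lower. Of 9 markers of mitochondrial content 2 were higher and 4 lower, with PPARGC1A (-1.80) beyond 2-fold. Among the porins of the outer membrane VDAC3 was lower (-0.21, adjusted p = 0.002), and VDAC1 (0.02, adjusted p = 0.887) and VDAC2 (0.06, adjusted p = 0.281) were not called. The calcium uniporter genes had 4 of 6 lower, with MCU (-1.10) and CCDC109B (-2.61) beyond 2-fold, and 2 higher.

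Other proteins with the carrier fold changed in both directions. UCP2, an uncoupling protein common in immune cells, was lower, from 33.5 ± 3.45 to 7.63 ± 1.34 CPM (-2.12 ± 0.10 SE, adjusted p = 3.83e-13). The T cell markers and 3 of 5 macrophage markers were lower as well (summed macrophage markers 105 to 138 CPM and 55.4 to 78.5 CPM), and their part in the UCP2 change was not tested. MTCH1 and MTCH2, carrier relatives of the outer membrane, were higher (1.15, adjusted p = 5.95e-13, and 0.48, adjusted p = 4.04e-06). UCP-1 had at most 1 read in a library and UCP3 had none.

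Some family members are neighbours on a chromosome with no annotated feature between them, and the 3 closest pairs are given here with their calls. SLC25A23 (chr5:15629456-15640235) and SLC25A41 (chr5:15644443-15651843) lie 4207 bases apart, and SLC25A23 was higher (0.54) where SLC25A41 was not called (0.20). SLC25A5 and SLC25A43 lie 11208 bases apart on chromosome X and neither was called. SLC25A29 and SLC25A47 lie 5050 bases apart on chromosome 18, and SLC25A29 ranked 6 in the family where SLC25A47 had at most 5 reads in a library and was not tested.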

How the data were processed

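Per the labels and methods, the authors mapped paired reads in CLC Genomics Workbench, combined 2 lanes per library, and deposited counts of reads on exons and whole genes, RPKM, and RPKM after quantile normalization; aligner version is not given in the sources used here. Deposited RPKM could be rebuilt from the counts to within 1.9e-06 of each value. The deposited columns of the authors' own comparison (fold changes and p-values of a Baggerly test) were not used. The members and gene lists were chosen with earlier results of these data known.

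Exon reads (whole-gene reads for 5583 features without an annotated transcript) were tested with edgeR 4.0.16 in R 4.3.3: filterByExpr by state, TMM, quasi-likelihood F-test, Benjamini-Hochberg adjustment over all genes tested, calls at an adjusted p under 0.05. The study's own test was not available here. Log2 changes are lactation minus late pregnancy, and the SE is the change over the root of F. CPM use TMM library sizes, and levels of different genes are compared per kilobase of exon. Dam nutrition (3 groups, 9 libraries), its interaction with the state, and intron reads were tested likewise. Alternatives were DESeq2 1.42.0, limma 3.58.1 on log2(RPKM after quantile normalization + 1), other scalings, filters, covariates, uniquely placed reads, left-out libraries and, chosen after seeing the data, the libraries of each lane header alone (a header names 1 lane although 2 were combined). Lane 7 names 4 late pregnancy and 3 lactation libraries and lane 8 names 5 and 3. Lane 7 names no LM library and lane 8 no HM lactation library. P-values measure the spread between pools. On simulated counts the test between states recovered 89.9% of genes changed by 1 and 99.0% of those changed by 2 on the log2 scale, against 77.6% and 98.0% for dam nutrition and 43.8% and 90.8% for the interaction. Few genes were changed in the simulation, in both directions, and for dam nutrition and the interaction only in the LM group. The shift of reads to milk protein genes was not simulated, so these rates do not show how the calls between states fare under it. Every kept gene is named but 1, which is not reported here; lowest, median and highest libraries are given for abundant, strongly changed and scaling-dependent genes, and related genes are named where called beyond 2-fold or in lists of up to 4 genes. Genes named outside this rule were chosen after their values were seen. Reads were counted without strand or molecular identifiers.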

Additional observations from a re-analysis of the deposited data

Results flagged for a closer look

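In 3 of 78 groups of log2(CPM + 1) values (39 genes in 2 states) 1 library stood far from the others by Dixon's criterion. Chance alone meets that criterion in about 1 of 20 groups. The gap over range given below is on this log2 scale, while the levels are in CPM. SLC25A20 in late pregnancy was lowest in LM pool 3 at 7.98 CPM from 210 reads, against 9.68 to 11.7 CPM in the other 8 libraries (gap over range 0.499). SLC25A29 in lactation was lowest in HM pool 2 at 36.6 CPM from 208 reads, against 49.7 to 58.4 CPM (0.653). SLC25A32 in late pregnancy was lowest in MM pool 2 at 10.99 CPM from 222 reads, against 12.4 to 13.9 CPM (0.518).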

How the results depend on the processing

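Counts of called SLC25 genes between the states (15 higher, 8 lower) were recomputed under each alternative. With library size alone they were 1 and 36, while 8 of 8 lower and 12 of 15 higher genes kept their call under DESeq2, upper quartile scaling, limma and the table without milk protein genes (in which SLC25A14 was not tested). The lower count was 14 in limma and 15 under upper quartile scaling. Leaving out 1 library gave 14 to 16 higher and 8 to 10 lower. The median log2 change of the tested SLC25 genes (0.14) was -1.76 with library size alone and -0.0132 under upper quartile scaling, with medians of all genes at -1.94 and -0.18, 0.0538 in limma, 0.047 without a filter, 0.06 in the lane 7 libraries, 0.0914 in the lane 8 libraries, 0.10 on uniquely placed reads, 0.18 without milk protein genes, 0.17 with the replicate block, and 0.07 to 0.18 without 1 library. Of all called genes 51.6% were lower, 97.3% with library size alone and 63.7% under upper quartile scaling.

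With library size alone the change was negative for SLC25A1 (-1.03), SLC25A13 (-1.07), SLC25A15 (-0.95), SLC25A16 (-1.72), SLC25A17 (-0.73), SLC25A21 (-0.16), SLC25A22 (-1.26), SLC25A23 (-1.37), SLC25A25 (-1.07), SLC25A29 (-1.80), SLC25A32 (-1.68), SLC25A33 (-1.47), SLC25A35 (-1.33), SLC25A38 (-1.70), SLC25A40 (-1.22), SLC25A41 (-1.70), SLC25A44 (-1.48), SLC25A46 (-1.66) and SLC25A53 (-1.72). Genes near zero also turned sign. SLC25A3 was at 0.0025 in DESeq2, 0.0001 with dam nutrition as covariate, 0.0004 in the lane 8 libraries, 0.0056 with the replicate block and -0.017 to 0.0242 without 1 library (above zero at 0.0001, 0.0031, 0.0128, 0.0101, 0.0151, 0.0007 and 0.0004), SLC25A12 at 0.0344 in limma, SLC25A29 at -0.12 in limma and -0.0516 under upper quartile scaling, SLC25A39 at 0.0914 in the lane 8 libraries and -0.091 to 0.0019 without 1 library (0.0019 without lactation HM pool 2) and SLC25A53 at -0.26 in the lane 8 libraries.

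On intron reads the counts (10 higher, 10 lower) were 4 and 18 with library size alone, 5 and 5 with 10 reads required in every library, and 9 to 12 and 9 to 11 without 1 library. For dam nutrition DESeq2 called 1 SLC25 gene and the other alternatives called 0, with 0 for the interaction. Pool numbers are shared by the groups, but same-numbered libraries did not deviate together (correlations -0.04 to 0.057, and 4 of 6 lactation libraries correlated best with another number). With dam group and pool number as a replicate block, 13 genes were higher and 8 lower, and SLC25A32 (adjusted p = 0.072) and SLC25A46 (adjusted p = 0.066) lost their calls. The cause of these shifts was not tested. Few reads limit SLC25A14, SLC25A27, SLC25A42 and SLC25A53 in lactation.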
